A study of Mus musculus with 9 samples.

Results

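The mitochondrial ribosomal protein genes of hair follicle bulge stem cells were compared between dietary restriction (DR, 4 libraries) and ad libitum feeding (AL, 5 libraries). Members were all gene symbols that begin with Mrpl or Mrps followed by a digit: 80 of the 35006 symbols in the tables, of which 49 were Mrpl symbols (large subunit) and 31 were Mrps symbols (small subunit). The rule uses symbols and no measured value. DR mice were given each day 70% of the food that AL mice matched for body weight and gender ate, and AL mice ate without limit. Both groups were C57BL/6J mice housed one to a cage, and cells positive for CD34 and integrin alpha6 were sorted by flow cytometry from pools of 3 mice per group. The labels give no age, sex, irradiation, hair cycle stage or duration of the diet for these samples, and do not say whether each library had its own pool. The p-values therefore measure the spread between these libraries, which may be technical.

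The mitochondrial ribosome translates the few proteins encoded by mitochondrial DNA, all of them subunits of the respiratory chain or of ATP synthase. Its rRNAs come from mitochondrial DNA, whereas its proteins are encoded in the nucleus, made in the cytosol and imported. Some of these proteins have counterparts in the bacterial ribosome and others were added in the mitochondrial lineage. Bulge stem cells divide rarely and are known for relying on glycolysis more than their progeny do.

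Gene totals ran from 26119459 to 33559312 counts per library, with no difference past the test between the diets (exact two-sided permutation test, p = 0.548). The sort markers were present, with Cd34 at 479 ± 102 CPM (counts scaled to a common library total) in DR and 1083 ± 579 CPM in AL, and Itga6 at 412 ± 11.8 CPM in DR and 449 ± 44.9 CPM in AL (SD, n = 4 and 5). Cd34 fell in DR (log2 fold change -1.18), with some overlap between the diets, and Itga6 was not called. Of 12 bulge markers tested, 7 fell (58.3%) and 1 rose (8.33%) in DR, beside 21.7% of all tested genes lower and 19% higher. All 20 genes of a G2 and M phase list fell, with summed levels of 28.7 to 69.2 CPM in DR and 156 to 1092 CPM in AL. Summed fibroblast markers were 19.99 to 40.6 CPM in DR and 74.0 to 123 CPM in AL, and 4 of them were tested. Most of that sum came from Col1a1 (4.88 ± 3.36 CPM in DR, 49.4 ± 11.8 CPM in AL) and Col1a2 (19.6 ± 4.37 CPM in DR, 51.9 ± 15.5 CPM in AL), which fell. Pdgfra rose (3.02 ± 1.85 CPM in DR, 1.07 ± 0.338 CPM in AL) and Dcn was not called (1.67 ± 1.32 CPM in DR, 0.957 ± 0.817 CPM in AL). Col3a1, Lum and Dpt were too low to be tested. Summed melanocyte markers were 124.5 to 176 CPM in DR and 111 to 230.4 CPM in AL. Mitf made up most of that sum, and of the 4 tested Dct (log2 fold change -2.17) and Tyrp1 (-2.13) fell. Immune markers summed to 21.2 to 72.5 CPM in DR and 16.0 to 50.6 CPM in AL, and endothelial markers to 4.22 to 34.7 CPM in DR and 2.15 to 17.0 CPM in AL. Differentiated epidermis markers summed to 2227 to 5540 CPM in DR and 2004 to 4734 CPM in AL, with 1 of 6 higher. Adipocyte, skeletal muscle and erythroid markers summed to at most 1.16 CPM in any library, and Myh4 was at 0 in all. In such bulk samples, fewer cells of a type and less RNA per cell cannot be told apart.

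Promoters of 6 members are shown because they belong to genes that differed between the diets and because they hold ETS, NRF1 or YY1 matches, or no match. Each window is 250 bases before to 50 after the transcription start, from RefSeq on GRCm38.p6, printed 5′ to 3′ on the strand of the gene. Capitals mark a CCGGAAG or CTTCCGG match (the core bound by ETS factors such as GABP), a CGCATGCG match (NRF1) or an AAGATGGC match (YY1). Mrpl17 (lower in DR, chr7:105811038-105811337, minus strand) holds 1 ETS and 1 NRF1 match. Mrpl52 (lower, chr14:54426659-54426958, plus strand) holds 2 ETS matches, and Mrpl42 (lower, chr10:95501900-95502199, minus strand) holds 1 YY1 match. Mrps23 (higher, chr11:88204138-88204437, plus strand) holds an ETS match. Mrps25 (lower, chr6:92183974-92184273, minus strand) and Mrps31 (higher, chr8:22411090-22411389, plus strand) hold none.
Mrpl17: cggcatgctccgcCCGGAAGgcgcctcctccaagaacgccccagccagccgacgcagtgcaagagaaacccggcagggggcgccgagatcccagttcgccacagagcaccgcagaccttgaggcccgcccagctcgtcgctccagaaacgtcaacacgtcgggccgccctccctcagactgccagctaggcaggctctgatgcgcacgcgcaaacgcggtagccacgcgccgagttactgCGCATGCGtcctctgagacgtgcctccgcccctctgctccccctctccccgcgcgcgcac
Mrpl52: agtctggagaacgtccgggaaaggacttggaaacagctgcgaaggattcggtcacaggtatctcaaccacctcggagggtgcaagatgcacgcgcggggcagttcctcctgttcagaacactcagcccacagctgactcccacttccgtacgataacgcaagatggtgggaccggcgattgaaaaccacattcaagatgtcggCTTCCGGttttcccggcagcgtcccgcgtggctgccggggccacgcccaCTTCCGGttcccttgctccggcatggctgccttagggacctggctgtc
Mrpl42: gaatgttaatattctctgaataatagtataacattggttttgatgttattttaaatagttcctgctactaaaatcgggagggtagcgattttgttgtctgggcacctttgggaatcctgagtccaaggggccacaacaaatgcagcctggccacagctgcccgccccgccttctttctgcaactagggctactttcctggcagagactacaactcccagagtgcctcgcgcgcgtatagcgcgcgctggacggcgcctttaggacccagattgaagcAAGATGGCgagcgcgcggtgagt
Mrps25: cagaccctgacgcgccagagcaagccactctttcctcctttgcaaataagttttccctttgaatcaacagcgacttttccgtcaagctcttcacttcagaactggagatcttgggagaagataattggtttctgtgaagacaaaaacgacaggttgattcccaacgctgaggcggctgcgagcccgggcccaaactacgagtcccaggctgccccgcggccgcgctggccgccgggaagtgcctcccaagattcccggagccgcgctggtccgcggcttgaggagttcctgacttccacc
Mrps23: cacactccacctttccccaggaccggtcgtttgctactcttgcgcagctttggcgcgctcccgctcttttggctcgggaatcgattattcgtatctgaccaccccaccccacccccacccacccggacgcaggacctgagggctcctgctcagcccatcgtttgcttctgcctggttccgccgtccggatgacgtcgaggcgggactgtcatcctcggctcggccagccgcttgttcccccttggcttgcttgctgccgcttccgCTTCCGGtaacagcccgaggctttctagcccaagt
Mrps31: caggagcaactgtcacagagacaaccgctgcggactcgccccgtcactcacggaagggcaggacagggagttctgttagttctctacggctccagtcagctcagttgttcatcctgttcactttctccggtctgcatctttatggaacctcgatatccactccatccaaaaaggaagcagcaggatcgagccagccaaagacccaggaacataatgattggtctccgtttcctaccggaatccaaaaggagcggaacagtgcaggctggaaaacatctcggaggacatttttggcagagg

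Motif matches were found both among members that fell and among members not called. Windows were at hand for 67 of the 80 members, 73 windows in all. An ETS match on either strand lay in 24 member windows (32.9%), against 8.86% of all 32851 windows and 16.0% of those of tested genes. It lay in 7 of 20 windows of members lower in DR, in 1 of 3 of those higher, and in 15 of 49 of those not called. YY1 matches lay in 12 member windows (16.4%), against 2.75% of all windows and 4.0% of those of tested genes. They were found in 5 of 20 windows of lower members and 7 of 49 of members not called. An NRF1 match lay in 7 member windows (9.59%), against 1.87% of all windows and 3.56% of those of tested genes, and 1 of these belonged to a lower member. The E-box CACGTG, read alike on both strands, lay in 7 member windows (9.59%), against 7.15% of all windows and 9.79% of those of tested genes. Some members have several windows, so windows are not independent. Overlapping windows of Mrpl2 hold the same E-box, which is counted in each. No matches of different motifs overlapped in a member window. A match is a stretch of letters and not a measured binding site.

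The median log2 fold change of mitochondrial ribosomal protein transcripts in DR was modestly below that of all tested genes. Members called lower were found in both subunits, and those called higher were a smaller share than among all tested genes. By edgeR's quasi-likelihood test (adjusted p under 0.05 over all genes), 24 of 78 tested members fell in DR (30.8%), beside 21.7% of the 15447 tested genes. Only 3 members rose (3.85%), beside 19% of tested genes. In either direction 27 members passed (34.6%), beside 40.7% of tested genes, with most member calls lower and those of all genes nearly balanced. The median log2 fold change was -0.14 over members and -0.02 over all tested genes, and members ranged from -1.09 to 0.58. Every DR library lay below every AL library for 22 members, beside 17% of tested genes, and above for 4 members (Mrpl32, Mrps9, Mrps23 and Mrps31), beside 15.9%. Changes were small: 10 of 78 members passed at 1.5-fold or more, beside 24% of tested genes, and 1 at 2-fold or more, beside 11.5%. Without AL replicate 1 and DR replicates 1 and 2, which held the most endothelial counts, 17 members passed, beside 15.7% of tested genes lower and 13.7% higher; that alternative was chosen after seeing the marker levels.

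**Figure D1:**
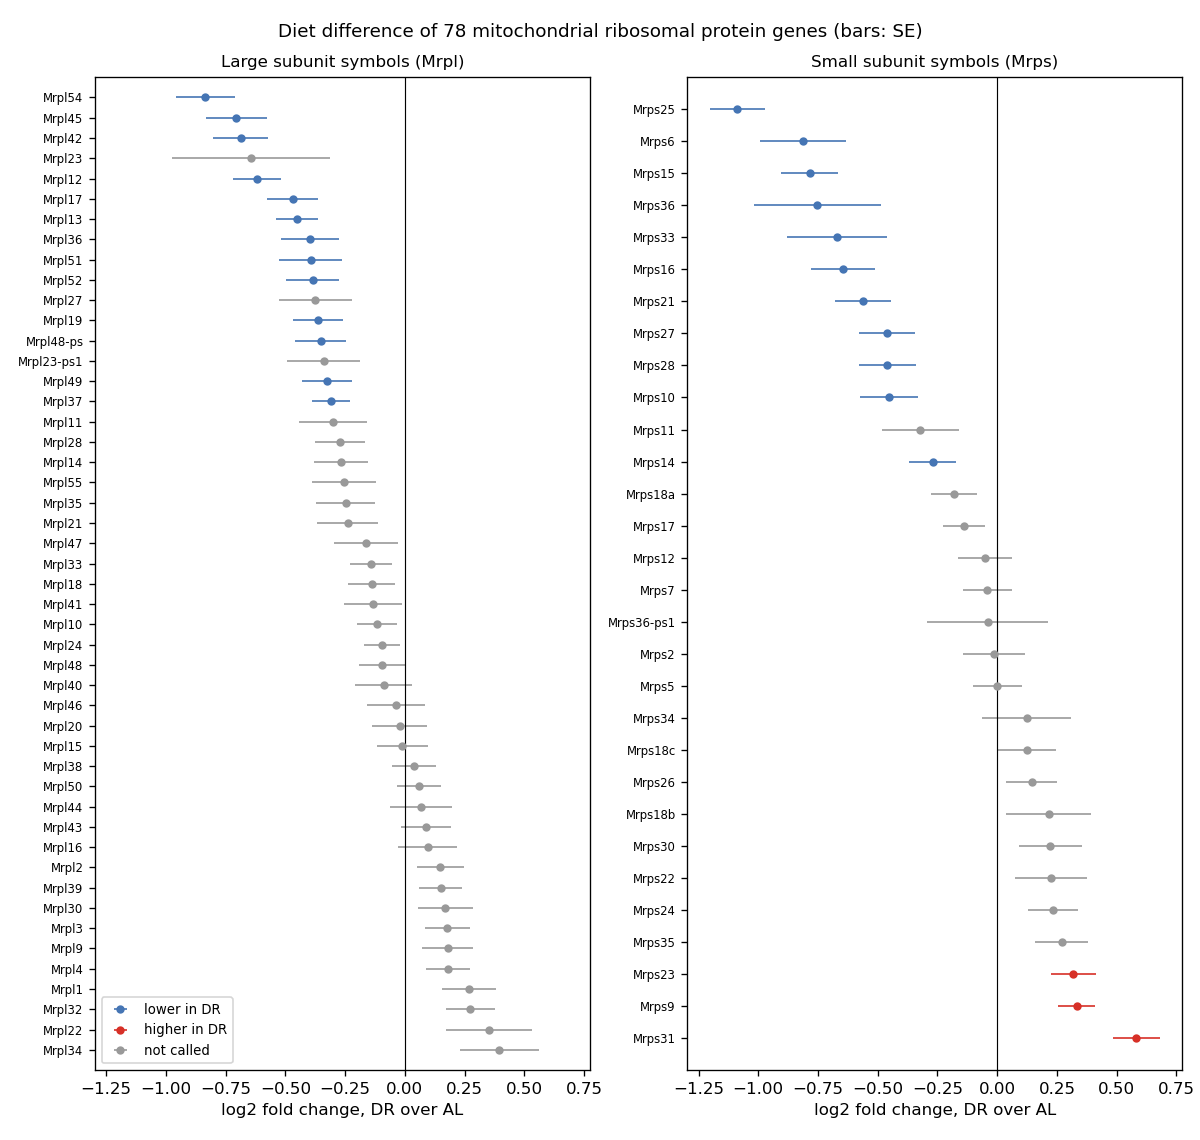
Log2 fold change (DR over AL, x axis) of the 78 tested members, with bars for the standard error (SE), Mrpl symbols on the left and Mrps symbols on the right; blue marks members lower in DR, red those higher and grey those not called. Calls are mostly blue, and the 3 red points, Mrps23, Mrps9 and Mrps31, are all Mrps symbols.

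Members called lower in DR were found in both subunits, in the large subunit at a share not far from that of all tested genes. Of 48 Mrpl symbols tested, 13 fell (27.1%) and none rose, beside 21.7% of all tested genes lower and 19% higher. The median log2 fold change of Mrpl symbols was -0.14. At an unadjusted p under 0.05, 20 Mrpl symbols passed (49.5% of all tested genes did), of which Mrpl1, Mrpl32 and Mrpl34 were higher, and these 3 were called by DESeq2's Wald test. Of 30 Mrps symbols tested, 11 fell (36.7%) and 3 rose (10%), with a median of -0.05, beside -0.02 over all tested genes. Sorted by where the protein sits rather than by symbol, 12 of 48 large subunit members fell (25%), near the share of all tested genes. Of 26 small subunit members 10 fell (38.5%) and 3 rose (11.5%). The difference between the subunits in these counts was not tested.

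In summed transcripts the large subunit symbols reached 875, 870.1, 923 and 876 CPM in the DR libraries, against 913, 999, 1057, 912 and 955 CPM in the AL libraries. Small subunit symbols summed to 445, 431, 480 and 448 CPM in DR and to 448, 495, 511, 445 and 457 CPM in AL. DR replicate 3 was the highest DR library in both sums. It alone reached into the AL range for the large subunit, whereas for the small subunit DR replicates 1, 3 and 4 reached the level of AL replicate 4. The mean log2 CPM of Mrpl symbols minus that of Mrps symbols was 0.44 ± 0.046 in DR and 0.43 ± 0.028 in AL (SD, n = 4 and 5), so the ranges of this balance overlapped. Members together took 0.126% to 0.135% of gene counts in DR and 0.131% to 0.165% in AL.

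**Figure D2:**
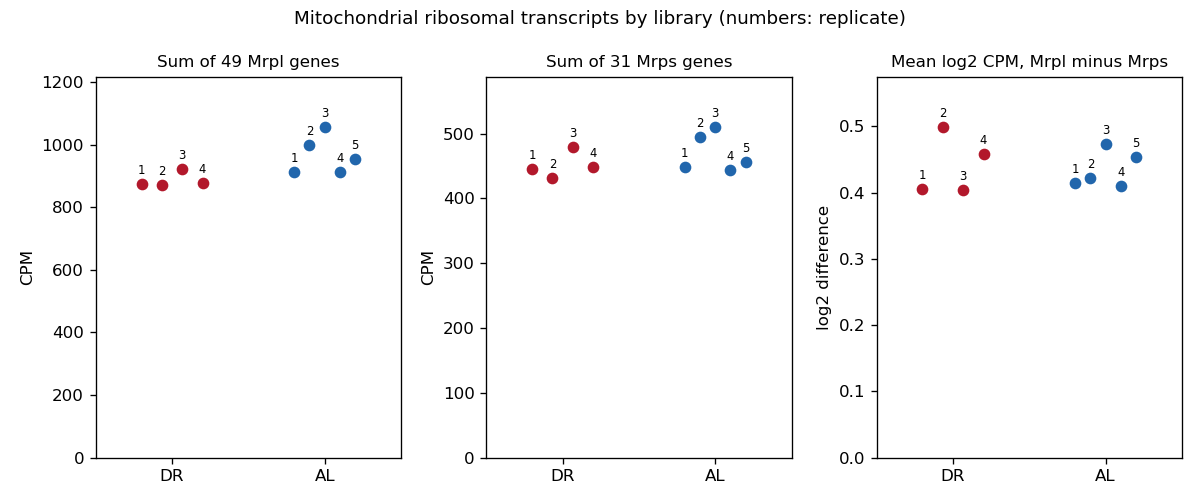
Summed CPM of the 49 Mrpl genes (left) and the 31 Mrps genes (middle), and the difference of their mean log2 CPM (right), 1 point per library with its replicate number, DR in red and AL in blue. Mrpl sums of 3 DR libraries lie below all AL libraries, while the difference between subunits overlaps at about 0.44 in DR and 0.43 in AL.

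Small subunit members held the largest changes in both directions. Mrps25, a small subunit protein added in the mitochondrial lineage, had 8.42, 7.002, 7.03 and 7.48 CPM in the DR libraries, against 16.4, 16.6, 17.2, 14.0 and 15.3 CPM in the AL libraries. All DR libraries were far below all AL libraries. Its log2 fold change was -1.09 (SE 0.11, edgeR adjusted p = 7.03e-05), the only one of 2-fold or more. In the GRCm38 annotation 58.2% of its exonic bases lie opposite Nr2c2, a nuclear receptor gene that rose in DR (55.0 ± 2.12 CPM in DR, 39.7 ± 2.23 CPM in AL, log2 fold change 0.47, adjusted p = 5.6e-04). The library kit does not mark strand, so reads from the shared stretch cannot be told apart.

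Mrps15, which binds the small subunit rRNA, had 14.8, 12.2, 12.3 and 10.5 CPM in DR, against 21.1, 23.5, 22.4, 18.6 and 21.9 CPM in AL. The groups did not overlap (log2 fold change -0.79, SE 0.12, edgeR adjusted p = 5.3e-04). Mrps6, the counterpart of a bacterial platform protein, had 6.80, 3.98, 5.49 and 4.97 CPM in DR, against 7.62, 9.49, 9.69, 11.2 and 8.54 CPM in AL. Its DR libraries all lay below the AL ones, DR replicate 1 closest to them (log2 fold change -0.81, SE 0.18, adjusted p = 0.0043). An exonic stretch of 36.1% is shared with Slc5a3 on the same strand, which was not called. Mrps16 had 11.3, 9.31, 13.6 and 10.6 CPM in DR, against 15.2, 17.0, 20.5, 16.4 and 18.4 CPM in AL (log2 fold change -0.65, SE 0.14, adjusted p = 0.0032), again without overlap. MRPS16 is known in humans as a mitochondrial disease gene.

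Mrps33 had 2.27, 1.71, 1.65 and 1.29 CPM in DR, against 2.78, 2.75, 3.29, 2.13 and 2.82 CPM in AL. DR replicate 1 was above AL replicate 4, and the call (log2 fold change -0.67, SE 0.21, edgeR adjusted p = 0.025) was lost without AL replicate 3 or any one of DR replicates 2, 3 and 4 (adjusted p = 0.055 to 0.069). Mrps36, whose protein is now known as a subunit of the 2-oxoglutarate dehydrogenase complex rather than of the ribosome, had 0.660 ± 0.174 CPM in DR and 1.11 ± 0.264 CPM in AL (SD, n = 4 and 5). Its groups overlapped, and its call (log2 fold change -0.75, SE 0.27, adjusted p = 0.043) was lost in 11 of 18 alternatives. Of the other small subunit members that fell, Mrps21, Mrps27, Mrps28, Mrps10 and Mrps14 had log2 fold changes of -0.56 to -0.27. Mrps14 lay nearest to the threshold (adjusted p = 0.048) and lost its call in 13 of 18 alternatives.

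The 3 members that rose all belong to the small subunit. Mrps31 had 21.9, 21.5, 23.9 and 24.8 CPM in DR, against 15.6, 15.7, 15.6, 13.2 and 16.9 CPM in AL. Every DR library was well above every AL library (log2 fold change 0.58, SE 0.10, edgeR adjusted p = 0.0010). Mrps9, the counterpart of a bacterial protein whose tail reaches the tRNA sites, had 37.5, 37.5, 36.5 and 36.5 CPM in DR, against 27.6, 32.9, 28.0, 29.4 and 28.9 CPM in AL. The DR libraries were tight and above all AL libraries (log2 fold change 0.33, SE 0.08, adjusted p = 0.0056), but the call was lost with library size scaling (adjusted p = 0.059) and without the 3 libraries richest in endothelial counts (adjusted p = 0.076). Mrps23 had 29.0, 30.6, 34.3 and 32.5 CPM in DR, against 22.8, 27.3, 28.6, 24.3 and 23.8 CPM in AL. Its groups touched without overlapping (log2 fold change 0.32, SE 0.09, adjusted p = 0.020), and it passed the threshold neither without AL replicate 1 nor without DR replicate 3 or 4 (adjusted p = 0.050 to 0.054). The call was also lost with upper-quartile scaling (adjusted p = 0.054), with library size scaling (0.12) and without the 3 libraries richest in endothelial counts (0.053).

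Several abundant small subunit members showed no difference past the test. Mrps7 averaged 32.0 ± 3.92 CPM in DR and 32.9 ± 2.85 CPM in AL (SD, n = 4 and 5; log2 fold change -0.04, SE 0.10). Mrps17 averaged 27.5 ± 0.861 CPM in DR and 30.2 ± 2.89 CPM in AL, and Mrps5 20.6 ± 2.28 CPM in DR and 20.6 ± 1.52 CPM in AL. The ranges of all 3 overlapped between diets. The Mrps18 paralogs, which arose by duplication of 1 bacterial counterpart, were also not called: Mrps18a, a large subunit protein despite its symbol, had 17.1 ± 1.54 CPM in DR and 19.4 ± 1.10 CPM in AL. Mrps18b had 7.40 ± 1.11 CPM in DR and 6.36 ± 1.21 CPM in AL, and Mrps18c 9.22 ± 0.421 CPM in DR and 8.45 ± 0.945 CPM in AL. Mrps30, which also sits in the large subunit, had 21.7 ± 3.58 CPM in DR and 18.6 ± 2.14 CPM in AL (log2 fold change 0.22, SE 0.13, adjusted p = 0.20).

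Among large subunit members Mrpl54 moved most, with 11.5, 8.50, 10.2 and 8.84 CPM in DR, against 16.2, 15.9, 19.9, 17.3 and 17.5 CPM in AL. All DR libraries lay below all AL libraries (log2 fold change -0.84, SE 0.12, edgeR adjusted p = 4.8e-04). Mrpl45, which lies at the exit of the nascent chain and tethers the ribosome to the inner membrane, had 10.2, 11.8, 8.98 and 8.48 CPM in DR, against 17.1, 17.1, 17.2, 14.4 and 14.6 CPM in AL. The groups were apart in every library (log2 fold change -0.70, SE 0.13, adjusted p = 0.0015). Mrpl42 had 8.88, 9.67, 9.17 and 7.45 CPM in DR, against 14.1, 14.5, 15.02, 12.7 and 14.4 CPM in AL (log2 fold change -0.69, SE 0.12, adjusted p = 9.4e-04), likewise without overlap.

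Mrpl12 is the stalk protein that recruits translation factors, and it has been reported to bind mitochondrial RNA polymerase. It had 14.1, 13.4, 14.7 and 13.0 CPM in DR, against 19.1, 22.8, 23.3, 21.4 and 19.2 CPM in AL. The DR libraries lay within a narrow band below the AL ones (log2 fold change -0.62, SE 0.10, edgeR adjusted p = 7.6e-04). Mrpl17 had 19.7, 18.7, 19.1 and 16.7 CPM in DR, against 23.6, 25.5, 31.3, 23.5 and 24.6 CPM in AL, where AL replicate 3 stood above the rest (log2 fold change -0.47, SE 0.11, adjusted p = 0.0054). Mrpl13 had 25.8, 25.7, 27.4 and 26.4 CPM in DR, against 30.8, 37.4, 40.2, 36.2 and 35.5 CPM in AL (log2 fold change -0.45, SE 0.09, adjusted p = 0.0021). Both were lower in all DR libraries than in any AL library. Of its exonic bases, Mrpl13 shares 27% with Mtbp on the opposite strand, which fell as well (16.8 ± 1.73 CPM in DR, 26.7 ± 5.26 CPM in AL, log2 fold change -0.67).

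Of the 3 most abundant large subunit members by CPM, 1 fell. Mrpl24 had the highest level of all members, 58.3 ± 1.63 CPM in DR and 62.3 ± 4.32 CPM in AL (SD, n = 4 and 5; log2 fold change -0.10, edgeR adjusted p = 0.33), and its groups overlapped. Mrpl9 had 52.1 ± 5.96 CPM in DR and 46.0 ± 5.11 CPM in AL (log2 fold change 0.18, adjusted p = 0.20), also with overlap. Mrpl37 was the third by level over both diets (in DR alone Mrpl3 averaged more, 35.5 ± 2.41 CPM) and fell, with 32.5, 36.5, 35.6 and 35.5 CPM in DR, against 45.8, 47.4, 41.8, 42.9 and 39.4 CPM in AL (log2 fold change -0.31, SE 0.08, adjusted p = 0.010). That difference, without overlap, was not called without the 3 libraries richest in endothelial counts (edgeR adjusted p = 0.10). With all libraries the adjusted p of Mrpl37 lay just above 0.01, so it was not called at that threshold. Mrpl38, Mrpl44 (a protein with an RNase III fold) and Mrpl43 had log2 fold changes of 0.04, 0.07 and 0.09, and Mrpl41 of -0.13, none of them called. The other large subunit symbols that fell were Mrpl36, Mrpl51, Mrpl52, Mrpl19, Mrpl49 and the pseudogene symbol Mrpl48-ps, at -0.40 to -0.33. Each of these calls was lost in some alternatives, from 2 of 18 for Mrpl52 to 6 of 18 for Mrpl51, whose groups overlapped. Mrpl19 shares 39.2% of its exonic bases with Gcfc2 on the opposite strand.

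**Figure D3:**
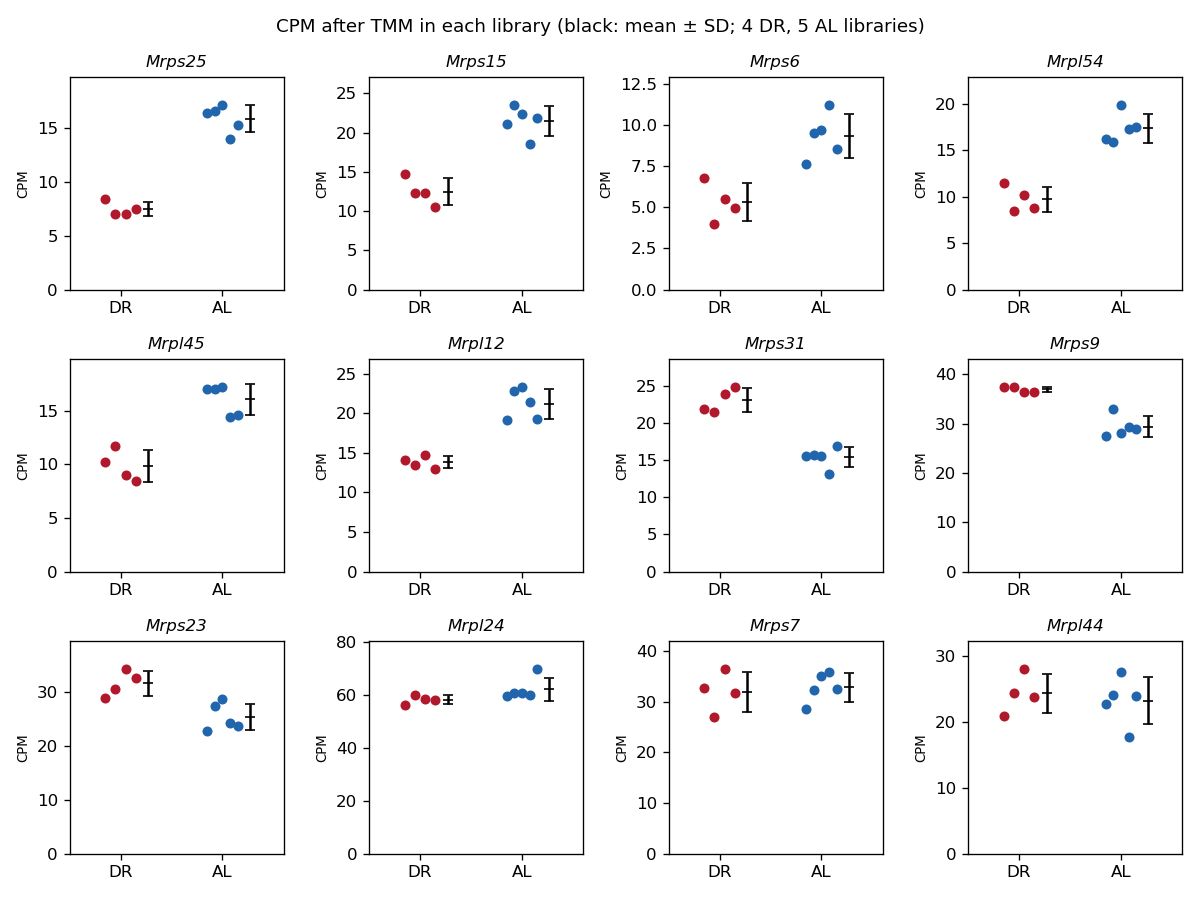
CPM (y axis, from 0) of 12 members in each library, DR in red and AL in blue, with the mean and SD in black at the right of each group. Mrps25 shows the widest gap (7.48 CPM in DR, 15.9 CPM in AL), Mrps31, Mrps9 and Mrps23 are higher in DR, and Mrpl24, Mrps7 and Mrpl44 overlap.

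Per kilobase of exon, the most abundant members were not those highest by CPM. Mrpl33 had 59.3 ± 4.55 CPM per kilobase in DR and 65.5 ± 4.84 in AL (SD, n = 4 and 5). Mrpl52 had 55.4 ± 7.67 CPM per kilobase in DR and 72.4 ± 6.95 in AL, so that these neighbours in rank lay within their spread of each other in either diet. Mrpl24 followed with 37.4 ± 1.05 CPM per kilobase in DR and 40.0 ± 2.78 in AL. Exonic bases are the union over transcripts of a GRCm38 annotation, which is not the build of the counts, and exons not transcribed in these cells count in the length. Mrps25, with 6073 exonic bases, had 1.23 ± 0.109 CPM per kilobase in DR and 2.62 ± 0.209 in AL.

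Some members have pseudogene symbols among the genes counted, and reads could be split between such copies, which was not measured here. Mrpl23 had 0.444 ± 0.187 CPM in DR and 0.699 ± 0.205 CPM in AL, whereas the pseudogene symbol Mrpl23-ps1 had 8.24 ± 1.33 CPM in DR and 10.4 ± 1.48 CPM in AL; neither was called. Mrpl48 had 14.9 ± 0.466 CPM in DR and 15.9 ± 1.39 CPM in AL and was not called, whereas Mrpl48-ps had 11.1 ± 0.355 CPM in DR and 14.2 ± 1.32 CPM in AL and fell (log2 fold change -0.35, edgeR adjusted p = 0.021). Mrps36-ps1 was at 1.03 ± 0.223 CPM in DR and 1.06 ± 0.279 CPM in AL. Mrpl53, with 1 to 12 counts per DR library and 0 to 11 per AL library, and Mrps36-ps2, with 2 to 8 and 5 to 12 counts, were too low to be tested. All exonic bases of Mrpl53 are shared with other genes in the annotation. In all, 25 members share exonic bases with another gene, and 8 share more than 25%.

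Members that fell were found among proteins with a bacterial counterpart, at a share near that of all tested genes, and among those added in mitochondria. With a counterpart, 12 of 46 members fell (26.1%) and 1 rose (Mrps9), beside 21.7% of all tested genes lower and 19% higher. The median log2 fold change of these members was -0.14. Without a counterpart, 11 of 29 fell (37.9%) and 2 rose (6.90%, Mrps23 and Mrps31), with a median of -0.09. Among Mrpl symbols 5 of 28 with a counterpart fell (17.9%) and 7 of 18 without (38.9%). Mrps symbols without a counterpart were the only one of these 4 groups with a median above 0, at 0.14 over 11 genes, of which 4 fell.

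Members are mostly short genes, and short genes of any kind were more often lower than higher in DR. Of all tested genes with up to 1000 exonic bases, 18.4% fell and 7.53% rose, and of the 24 members among them 9 fell and none rose. Between 1000 and 2000 bases 24.6% of genes fell and 14.0% rose, and 8 of 30 members fell while 3 rose. Between 2000 and 4000 bases 24.2% of genes fell and 17.9% rose, and 4 of 13 members fell. Above 4000 bases 19.1% of genes fell and 27.3% rose, and 3 of 11 members fell while none rose. The median log2 fold change of members was -0.30 against -0.11 for all genes in the shortest class, -0.11 against -0.09 in the next, which holds the most members, -0.16 against -0.04 in the third, and -0.01 against 0.08 in the longest. The part of length in the members' difference was not tested.

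**Figure D4:**
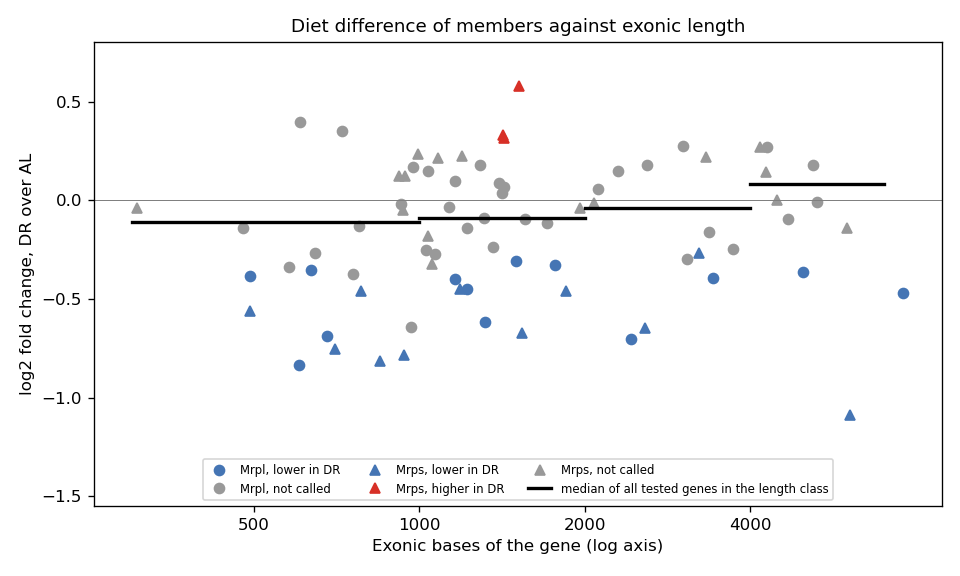
Log2 fold change (DR over AL) of the 78 tested members against exonic bases (log axis), circles for Mrpl and triangles for Mrps symbols, coloured by call, with black lines for the median of all tested genes in each length class. The median of all genes runs from -0.11 in the shortest class to 0.08 in the longest, and lower members (blue) are found at all lengths.

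Over the 9 libraries, which share the diet contrast and their scaling, 59 of 78 members (75.6%) had a positive correlation with the mean log2 CPM of the other members, beside 52.5% of other tested genes with the mean of all members. The median r was 0.62 for members, with a range of -0.64 to 0.92, and 0.06 for the other genes. The genes outside the list most like that mean were Tpd52 (r = 0.96; 43.8 ± 2.44 CPM in DR, 53.0 ± 4.21 CPM in AL, log2 fold change -0.27, edgeR adjusted p = 0.021), Psmg3 (r = 0.96, not called) and Fam58b (r = 0.96, not called). The mean log2 CPM of members was 3.76, 3.72, 3.82 and 3.69 in DR, against 3.84, 3.98, 4.04, 3.81 and 3.86 in AL. DR replicate 3 lay just above AL replicate 4, and the other DR libraries were lower than all AL libraries.

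Levels of dividing-cell transcripts moved with the diet as well. The G2 and M phase genes had a mean log2 CPM of -0.28 to 1.26 in DR libraries and 2.43 to 5.24 in AL libraries, with AL replicate 5 lowest among AL libraries. AL replicate 5 still lay above every DR library for these genes. Its members' mean log2 CPM was 3.86, and 1 library cannot separate diet from dividing cells. The part of dividing cells in the members' difference was not tested.

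The genes that work with the mitochondrial ribosome did not move in 1 direction. Of 7 further ribosomal proteins without Mrp symbols, Chchd1 fell (10.8 ± 0.946 CPM in DR, 15.9 ± 0.929 CPM in AL, log2 fold change -0.56, edgeR adjusted p = 0.0017) and so did Ict1, a peptidyl-tRNA hydrolase (-0.41, adjusted p = 0.0088). Gadd45gip1 (-0.22) and Aurkaip1 (0.09) were not called. Of 24 assembly factors 3 fell (12.5%) and 4 rose (16.7%), beside 21.7% of all tested genes lower and 19% higher. The median log2 fold change of assembly factors was 0.10. Fastkd2, needed for the large subunit rRNA, fell (16.5 ± 1.35 CPM in DR, 24.98 ± 1.81 CPM in AL, -0.60, adjusted p = 6.8e-04), and so did the GTPase Noa1, listed as 2610024G14Rik (-0.57). Rbfa, a maturation factor of the small subunit, rose (38.8 ± 4.52 CPM in DR, 26.9 ± 0.947 CPM in AL, 0.53, adjusted p = 0.0010), as did the large subunit factor Malsu1, listed as 2410003K15Rik (0.62).

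Of 14 translation factors 4 fell (28.6%) and 2 rose (14.3%), beside 21.7% of all tested genes lower and 19% higher. The elongation factor Tsfm fell (7.59 ± 0.832 CPM in DR, 13.1 ± 1.83 CPM in AL, log2 fold change -0.78, edgeR adjusted p = 0.0014), as did Guf1 (-0.47), whereas the initiation factor Mtif3 (0.59) and the membrane insertase Oxa1l (0.41) rose. Of 13 genes of mitochondrial transcription and RNA 2 fell (15.4%), Slirp, listed as 1810035L17Rik (-0.58), and its partner Lrpprc (-0.24). In the same list 1 rose (7.69%), the transcription factor Tfb2m (8.62 ± 0.764 CPM in DR, 5.26 ± 0.287 CPM in AL, 0.71, edgeR adjusted p = 0.0011). Tfam, which packages mitochondrial DNA, was not called (0.26, adjusted p = 0.068). Protein import had 7 of 27 genes lower (25.9%) and 1 higher (3.70%), with a median of -0.21. The translocase subunits Timm17b (-0.89), Timm13 (-0.70) and Timm22 (-0.62) and the chaperonin Hspd1 (-0.60) had the smallest p.

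Regulators of mitochondrial biogenesis moved both ways, with 4 of 11 higher (36.4%) and 2 lower (18.2%), beside 19% of all tested genes higher and 21.7% lower. Nrf1 rose (51.1 ± 2.49 CPM in DR, 38.7 ± 2.37 CPM in AL, log2 fold change 0.40, edgeR adjusted p = 0.0017), and so did Gabpa, the DNA-binding subunit of GABP (100.3 ± 8.30 CPM in DR, 82.4 ± 2.16 CPM in AL, 0.28, adjusted p = 0.011). The coactivator Ppargc1a rose to 8.07 ± 2.33 CPM in DR, against 4.59 ± 1.17 CPM in AL (0.82, adjusted p = 0.017), and the nuclear receptor Esrra fell (-0.41, adjusted p = 0.0048). Myc also rose, with overlap between the diets (0.98, edgeR adjusted p = 0.020), and Ppargc1b fell (-0.50, edgeR adjusted p = 0.021). Of 13 protein genes of mitochondrial DNA 5 were at 0 in all libraries and 7 were tested, with a median of -0.60. Of these, 4 fell (57.1%), namely mt-Nd4 (-0.77), mt-Cytb (-0.74), mt-Nd6 (-0.66) and mt-Nd5 (-0.60), whereas mt-Co1 (-0.49), mt-Nd2 (-0.31) and mt-Nd1 (-0.05) were not called. The mitochondrial share of counts is a sum that contains these genes, so the 2 are not independent. It was 1.52% ± 0.324 in DR and 2.17% ± 0.460 in AL (SD, n = 4 and 5, exact two-sided permutation test, p = 0.0714, adjusted p = 0.214 over 3 library measures). The genes at 0 were mt-Co2, mt-Co3, mt-Atp6, mt-Atp8 and mt-Nd4l, whereas mt-Co1 averaged 4857.5 CPM in DR and 6839.1 CPM in AL. The share holds no counts of those 5 genes, and the cause of their zeros was not tested.

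Of 78 cytosolic ribosomal protein genes 7 fell (8.97%) and 1 rose (1.28%), beside 21.7% of all tested genes lower and 19% higher. The median log2 fold change of this list was -0.09. The 1 that rose, Rpl23a, was named after its values were seen: it had 71.4 CPM in DR replicate 3, against 1.44 to 5.39 CPM in the other DR libraries and 0.939 to 6.56 CPM in AL. Rpl15 fell most clearly (33.3 ± 6.60 CPM in DR, 63.4 ± 4.91 CPM in AL, -0.93, edgeR adjusted p = 2.8e-04), followed by Rpl31 (-0.92), Rpl27a (-0.61) and Rpsa (-0.49). Many cytosolic ribosomal protein genes have near-identical pseudogenes, and their counts are uncertain for that reason. A difference between the 2 ribosomes in these counts was not tested.

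**Figure D5:**
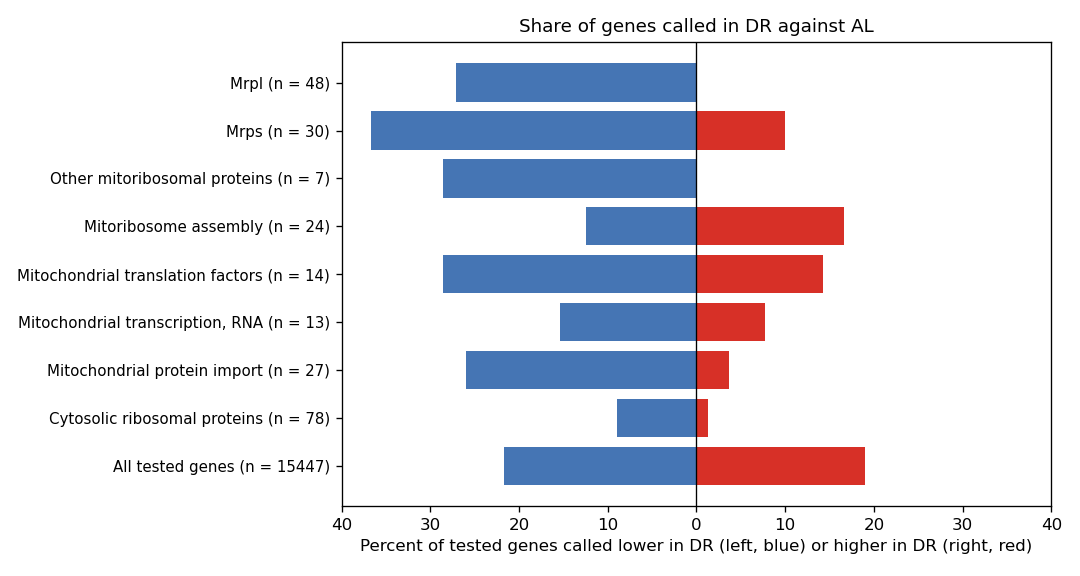
Percent of tested genes called lower in DR (blue, to the left) and higher in DR (red, to the right) for Mrpl and Mrps symbols, 6 related gene lists and all tested genes, with the number tested beside each name. Mrpl symbols have 27.1% lower and none higher, Mrps symbols 36.7% lower and 10% higher, and all tested genes 21.7% lower and 19.0% higher.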

How the data were processed

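The deposited values are raw read counts for each gene symbol, 1 table a library, not normalized. The submitters' processing notes name mm9, HTSeq 0.11.2, TopHat2 2.1.0, Bowtie and FastQC 0.11.5. The annotation and strand setting were not given in the sources used here. Of 35012 lines per file, 6 name no gene (25.9% to 30.7% of reads) and were left out. In the 16 same-diet library pairs, chi-square divided by its degrees of freedom was 25.8 to 118, so none was a copy of another.

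Counts were analysed with edgeR 4.0.16 in R 4.3.3 (filterByExpr, TMM, quasi-likelihood test on diet, Benjamini-Hochberg adjustment over 15447 genes, threshold 0.05). SEs are those implied by the F statistic. CPM were computed after TMM, and log2 CPM used a prior count of 2. Correlations and library measures used all 9 libraries. The test was checked on simulated counts with the same relative spread for every gene and few changed genes. That check does not give the error rate in these data.

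Exonic lengths and overlaps came from a GENCODE annotation of GRCm38, and promoters from RefSeq; of 184 list symbols, 12 matched by an older symbol and 3 had no match. Per subunit symbol the text names the 6 most negative and 3 most positive fold changes past the threshold, the 3 highest levels, the 3 smallest changes at 20 CPM or more, and 7 fixed members. It also names up to 4 genes of each list by p, and the 3 most like the members' mean. Other genes were chosen after their values were seen. The members and lists were chosen with earlier results of these data known. Alternatives were other scalings, filters and tests (DESeq2 1.42.0, limma 3.58.1 voom), a threshold of 0.01, a replicate block, and leaving out libraries.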

Additional observations from a re-analysis of the deposited data

Results flagged for a closer look

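In 58 groups of libraries checked, 2 held a library far from the others of its diet, and chance alone gives such a gap in about 1 in 20 groups. Mrpl17 stood at 31.3 CPM in AL replicate 3, above the other AL libraries (23.5 to 25.5 CPM), while its DR libraries had 16.7 to 19.7 CPM. Without AL replicate 3, Mrpl17 was still lower in DR by edgeR. Mrpl24 stood at 70.0 CPM in AL replicate 5, where the other AL libraries had 59.9 to 60.8 CPM and the DR libraries 56.3 to 60.3 CPM, and it was not called with or without that library.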

How the results depend on the processing

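The median log2 fold change of members stayed below 0 in every alternative run, at -0.21 to -0.09, where library size scaling moved the median of all genes to -0.09. Calls of Mrpl12, Mrpl13, Mrpl17, Mrpl42, Mrpl45, Mrpl54, Mrps6, Mrps15, Mrps16, Mrps21, Mrps25 and Mrps31 held in all 18 alternatives at the 0.05 threshold. At an adjusted p of 0.01, 3937 genes were called (2071 lower, 1866 higher), and 14 members, 12 of them lower, 6 Mrpl and 6 Mrps. Without the 3 libraries with most endothelial counts, 17 members were called, 16 of them shared with the 27, with 6 Mrps lower and 1 Mrps higher. With library size scaling 1 member was higher, an Mrps symbol, and with the DESeq2 Wald test 6 were. Mrpl symbols called higher numbered 1 with DESeq2 size factors, 3 with the Wald test and 1 with voom. Leaving out 1 library gave 19 to 27 members called (19 without DR replicate 3) and 0 to 2 Mrpl symbols higher (2 without DR replicate 4). The cause of these shifts was not tested.

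Members with changes near 0, none called, changed sign. Mrpl38 was at -0.0226 with upper-quartile scaling, -0.0304 with library size, -0.0144 without the 3 libraries and -0.00788 to 0.0888 leaving out 1 library. Mrpl44 was at -0.0016 with library size and -0.0181 to 0.135 leaving out 1. Mrps7 was at 0.0096 without the 3 libraries and -0.0951 to 0.0352 leaving out 1. Mrps5 was at -0.0588 with upper-quartile scaling, -0.0645 with library size, -0.0086 with the stricter filter, -0.0424 with voom, -0.109 without the 3 libraries and -0.0462 to 0.0654 leaving out 1.

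The labels name no pairing by replicate number, and 4 correlations cannot settle whether there was one. Deviations of same-numbered DR and AL libraries from their diet means correlated at 0.039, 0.13, 0.23 and 0.029. AL replicates 2 and 3 matched the DR library of their own number best, and AL replicates 1 and 4 did not. With the replicate block 24 of the 27 member calls held and 1 was gained (Mrpl34, higher, the 1 Mrpl symbol so called), and Mrps5 was at -0.0207.

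Low counts limit what can be said of Mrpl53, Mrps36-ps2, Mrpl23, Mrps33 and Mrps36, and the cause of these low counts was not tested.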
